A study of Mus musculus and Rattus norvegicus with 85 samples.

Results

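Genes of DNA replication and mitosis were followed in the lungs of female mice and rats that inhaled chloroprene, the volatile chlorinated monomer of neoprene rubber. The genes were 45 named symbols, from the licensing and fork proteins of DNA replication to the spindle and cytokinesis proteins, and every probe set that the array annotation gave to one of them was taken. Cdk1, Aurka and Nek2 were left out of the 45 and are given beside them. The mouse arrays named 44 of the 45 genes, on 101 probe sets, and 34 genes could be tested among 13796 genes. On the rat arrays 40 were named, on 59 probe sets, and 31 could be tested among 11010 genes.

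The series holds 85 Affymetrix arrays, 1 for each animal. Mice were B6C3F1/Crl females, in groups of 5 at 0, 0.3, 2, 13 and 90 ppm killed after 5 days of exposure, and at 0.3, 2, 13 and 90 ppm killed after 15 days of exposure. Rats were F344/NCrl females by the design text (the sample labels spell the strain F334/NCrl), in groups of 5 at 5, 30, 90 and 200 ppm at each of the same times. All animals were 10 weeks old at the start and inhaled for 6 hours a day on 5 days a week with the whole body exposed, and RNA came from the right lung. Mice at 0 ppm at 15 days and rats at 0 ppm were not analysed here, so the reference was 0 ppm for mice at 5 days, 0.3 ppm for mice at 15 days and 5 ppm for rats. Animals killed at 15 days were also older than those killed at 5 days, and age and length of exposure cannot be told apart. The title and the duration field disagree for 9 mice of the 15-day groups, and the title was followed. The titles of the rats numbered 239, 269 and 282 have another form than those of all other rats. What this form marks is not given.

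Before a cell divides, the MCM helicase is loaded on DNA with the help of Cdc6 and Cdt1, the fork is built around Pcna, and ribonucleotide reductase supplies the nucleotides. In mitosis the B-type cyclins, Plk1 and the transcription factor Foxm1 drive entry, Top2a untangles the chromosomes, the kinetochore and checkpoint proteins hold Cdc20 back until all chromosomes are attached, and the spindle and midbody proteins pull them apart and divide the cell. Most cells of an adult lung do not divide, and transcripts of these genes are commonly read as a sign of dividing cells in a tissue, although some of them also serve the building of many centrioles in cells that become ciliated.

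Values are log2 signals as deposited, with differences given as log2 first group minus second, with their standard error (SE). A gene was tested with limma if its probe set was above the 40th percentile of the species' table (6.67 in mice, 6.65 in rats) on at least 5 arrays. A gene is said to have risen or fallen where its p-value, adjusted over all tested genes of the species by the Benjamini-Hochberg method, was under 0.05, two-sided. The lung markers Sftpc, Sftpb, Scgb1a1, Ager and Cldn18 were all tested in both species, with values on single arrays from 12.88 to 15.33 in mice and from 12.93 to 15.14 in rats. Integrity numbers (RIN) were given for 40 mouse and 38 rat arrays.

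Of the mouse genes, Clspn, Tyms, Ccne2, Cenpe, Cenpf, Bub1, Ttk, Aurkb, Kif11 and Kif20a lay below the filter and Ccnb1 had no probe set annotated to it. In the rat Ccne1, Ccna2, Mki67, Cenpa, Cenpe, Bub1, Bub1b, Ttk and Kif11 lay below it, Cdc6, Gins2 and Tpx2 had no probe set, and Rrm2 and Anln shared theirs with another gene. Some tested genes passed on few arrays: Cdc6 on 7, Ect2 on 13, Mki67 on 23 and Birc5 on 30 of the 45 mouse arrays, and Ccne2 on 7, Ect2 on 8 and Birc5 on 14 of the 40 rat arrays. Such genes sit near the bottom of the array's range. Rat Ccne2 passed only in 5-day groups, on 3 arrays at 90 ppm, 3 at 200 ppm and 1 at 5 ppm. It entered the test through the groups in which it is high, so its differences are given as a description and support nothing. Mouse Ect2 passed on 3 arrays at 90 ppm and 5 days, 4 at 13 ppm and 5 days and 1 of the 0 ppm controls, and on 10 arrays without the 90 ppm mice.

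The promoters of the mouse genes show what the group shares in sequence. Promoters of 37 of the 45 genes were matched by symbol in RefSeq (GRCm38.p6), and 3 motifs were sought on both strands in the 250 bases before the start: the CCAAT box, the cell cycle homology region (CHR, searched as TTTGAA or TTCGAA) and an E2F site (searched as TTTCCCGC, TTTCGCGC, TTTGCCGC or TTTGGCGC). CCAAT stood in 27 of the 37 promoters, which is 73%, against 33.8% of all 32851 promoters of the table. CHR letters stood in 10 of 37, or 27%, against 17.1% of all promoters, and E2F letters in 4 of 37, or 10.8%, against 1.86%. By role, the 4 E2F matches (Mcm5, Mcm6, Mcm7 and Cdc6) all lay among the 16 promoters of replication genes and 0 among the 21 of mitosis genes. CCAAT stood in 10 of the 16 (62.5%) and 17 of the 21 (81%), and CHR in 3 of the 16 (18.8%) and 7 of the 21 (33.3%). These shares describe letters only and were not tested; a match is not a site in use.

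Below are the 180 bases before the start of the 6 genes that rose in mice at 90 ppm and of 3 replication genes that did not pass the test, each 5′ to 3′ on the gene's strand, in lower case with the motif letters in capitals. The 3 comparison genes and the length shown were chosen after the matches were seen.
Mcm2, GRCm38.p6 chr6:88898781-88898960, minus strand: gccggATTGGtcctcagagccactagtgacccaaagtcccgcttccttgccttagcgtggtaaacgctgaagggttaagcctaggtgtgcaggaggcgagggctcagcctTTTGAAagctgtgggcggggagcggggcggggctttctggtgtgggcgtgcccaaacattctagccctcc
Mcm5, GRCm38.p6 chr8:75109329-75109508, plus strand: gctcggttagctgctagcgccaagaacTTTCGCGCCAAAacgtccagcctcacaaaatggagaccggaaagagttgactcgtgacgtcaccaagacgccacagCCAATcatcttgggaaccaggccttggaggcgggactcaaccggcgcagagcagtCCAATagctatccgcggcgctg
Cdt1, GRCm38.p6 chr8:122567835-122568014, plus strand: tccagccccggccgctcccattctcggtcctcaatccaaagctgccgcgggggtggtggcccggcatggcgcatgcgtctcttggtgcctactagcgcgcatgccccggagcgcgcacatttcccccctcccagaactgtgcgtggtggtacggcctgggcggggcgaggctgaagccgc
Rrm1, GRCm38.p6 chr7:102441515-102441694, plus strand: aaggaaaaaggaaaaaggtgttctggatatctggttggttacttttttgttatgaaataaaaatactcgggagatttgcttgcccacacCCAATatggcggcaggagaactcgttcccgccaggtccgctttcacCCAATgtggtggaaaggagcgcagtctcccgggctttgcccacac
Plk1, GRCm38.p6 chr7:122159255-122159434, plus strand: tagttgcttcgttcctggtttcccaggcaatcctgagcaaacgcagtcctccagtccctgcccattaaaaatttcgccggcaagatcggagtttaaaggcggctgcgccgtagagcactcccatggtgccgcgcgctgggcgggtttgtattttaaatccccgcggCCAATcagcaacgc
Cks2, GRCm38.p6 chr13:51645052-51645231, plus strand: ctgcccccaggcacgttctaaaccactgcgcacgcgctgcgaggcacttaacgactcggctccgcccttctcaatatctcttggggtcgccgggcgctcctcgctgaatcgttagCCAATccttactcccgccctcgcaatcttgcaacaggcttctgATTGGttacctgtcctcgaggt
Top2a, GRCm38.p6 chr11:99024190-99024369, minus strand: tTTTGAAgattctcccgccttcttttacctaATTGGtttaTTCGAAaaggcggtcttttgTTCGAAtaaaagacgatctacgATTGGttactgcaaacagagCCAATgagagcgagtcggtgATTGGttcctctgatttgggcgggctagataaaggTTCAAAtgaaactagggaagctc
Cdc20, GRCm38.p6 chr4:118437344-118437523, minus strand: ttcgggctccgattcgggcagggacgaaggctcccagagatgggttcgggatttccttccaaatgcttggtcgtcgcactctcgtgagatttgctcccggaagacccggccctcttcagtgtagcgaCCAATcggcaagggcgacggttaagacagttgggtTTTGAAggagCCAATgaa
Ect2, GRCm38.p6 chr3:27153879-27154058, minus strand: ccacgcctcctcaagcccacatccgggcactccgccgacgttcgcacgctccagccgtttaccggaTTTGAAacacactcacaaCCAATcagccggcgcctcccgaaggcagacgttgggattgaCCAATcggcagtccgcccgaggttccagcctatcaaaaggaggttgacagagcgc
The Cdt1 stretch holds none of the 3 motifs.

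In mice killed after 5 days, 90 ppm was set against 0 ppm, the only comparison here with a 0 ppm group at the highest concentration. Of the 34 tested genes 6 rose and 0 fell: Cks2, Cdc20, Ect2, Rrm1, Top2a and Plk1. Over all 13796 genes 8.99% rose and 7.35% fell, so a share of 6 in 34 is to be read against that background. The median difference of the 34 genes was 0.06, against 0.01 for all genes, and 23 of the 34 were above 0. In bulk lung RNA, more cells of a kind and more RNA per cell cannot be told apart.

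The licensing and fork genes did not move as a group. Of 11 tested, 0 rose and 0 fell, and their differences ran from -0.10 to 0.24 with a median of -0.03. Mcm2, a subunit of the helicase, read 9.96, 10.25, 9.80, 10.26 and 10.00 in the mice at 0 ppm and 10.35, 9.74, 10.00, 9.70 and 10.00 in those at 90 ppm. The groups overlapped over nearly their whole range, with a difference of -0.10 ± 0.15 (SE, n = 5 per group; limma adjusted p = 0.745). Pcna, the sliding clamp of the fork, also overlapped, at 12.39 to 12.68 against 12.40 to 12.57 (-0.06 ± 0.07, adjusted p = 0.678). Cdt1, the loading factor that is destroyed once replication begins, differed by 0.02 ± 0.17 (adjusted p = 0.965). The regulators of entry into S phase gave a like picture, with E2f1 at -0.16 ± 0.10 (adjusted p = 0.303) and the cyclin Ccne1 at 0.03 ± 0.08 (adjusted p = 0.869).

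Among the 3 genes of nucleotide supply, Rrm1 rose. Rrm1 encodes the large subunit of ribonucleotide reductase, and its log2 values were 9.07, 9.30, 9.47, 9.29 and 9.30 at 0 ppm and 9.67, 9.55, 9.40, 9.53 and 9.68 at 90 ppm. At 90 ppm 4 of 5 mice stood above every control, and the rise was 0.28 ± 0.09, or 1.22-fold (adjusted p = 0.0329). Rrm2, the small subunit, which is made mainly in S phase, differed by 0.38 without passing the test (adjusted p = 0.193).

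Mitotic entry held the strongest member. Cks2, a small protein that binds cyclin-dependent kinases, read 8.38, 8.80, 8.54, 8.69 and 8.45 in the control mice and 9.60, 9.32, 9.44, 9.54 and 9.33 in the mice at 90 ppm. The lowest exposed mouse stood well above the highest control. The rise was 0.88 ± 0.13, or 1.83-fold (limma adjusted p = 2.2e-06). Plk1, the kinase that activates mitotic entry, rose by 0.32 ± 0.11, or 1.24-fold (adjusted p = 0.0410), from 7.06, 7.24, 7.22, 7.28 and 7.22 to 7.54, 7.35, 7.44, 7.64 and 7.62, without overlap. The B-type cyclin Ccnb2 had a difference of 0.43 ± 0.17 that missed the threshold (adjusted p = 0.0840), and Foxm1, the transcription factor of the mitotic genes, was at -0.05 ± 0.07 (adjusted p = 0.682).

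Chromosome structure was represented by Top2a and Mki67. Top2a, the topoisomerase that separates sister chromatids, read 7.14, 8.10, 7.76, 7.67 and 7.19 at 0 ppm and 7.67, 8.20, 8.36, 8.28 and 7.82 at 90 ppm. The groups overlapped, with 3 of 5 exposed mice above every control, and the rise was 0.49 ± 0.17, or 1.41-fold (adjusted p = 0.0345). Mki67, the coat protein of mitotic chromosomes and the usual proliferation marker, was spread widely in both groups, at 6.51, 7.28, 6.90, 6.40 and 6.08 against 6.24, 6.85, 7.30, 6.53 and 6.48. Its difference was 0.05 ± 0.24 (adjusted p = 0.934), and with that SE a change of the size of Plk1's would not have been detectable.

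Of the 4 kinetochore and checkpoint genes, Cdc20 rose. Cdc20 activates the ubiquitin ligase that starts anaphase, and it read 8.19, 8.91, 8.42, 8.79 and 8.21 at 0 ppm and 9.95, 9.15, 9.12, 9.42 and 9.11 at 90 ppm. All 5 exposed mice were above all controls, by 0.85 ± 0.21, or 1.80-fold (adjusted p = 0.0030). The checkpoint proteins themselves did not pass the test, with Mad2l1 at -0.01 (adjusted p = 0.967) and Bub1b at 0.14 (adjusted p = 0.398). Cenpa, the histone that marks centromeres, was at -0.16 (adjusted p = 0.637).

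The passenger complex, which corrects attachments and guides division, was measured through Birc5 alone, at 0.25 ± 0.20 (adjusted p = 0.445). Of the 6 spindle and cytokinesis genes Ect2 rose. Ect2 activates RhoA at the cell's equator; it read 6.13, 6.71, 5.69, 6.39 and 6.00 at 0 ppm and 6.48, 6.87, 7.17, 6.89 and 6.56 at 90 ppm. The rise was 0.61 ± 0.18, or 1.52-fold (adjusted p = 0.0155), with 3 of 5 exposed mice above every control and levels close to the filter. Its partners at the midzone and midbody did not pass the test: Prc1 was at 0.01, Kif23 at 0.24 and Anln at 0.33 (adjusted p = 0.982, 0.173 and 0.141).

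**Figure D1:**
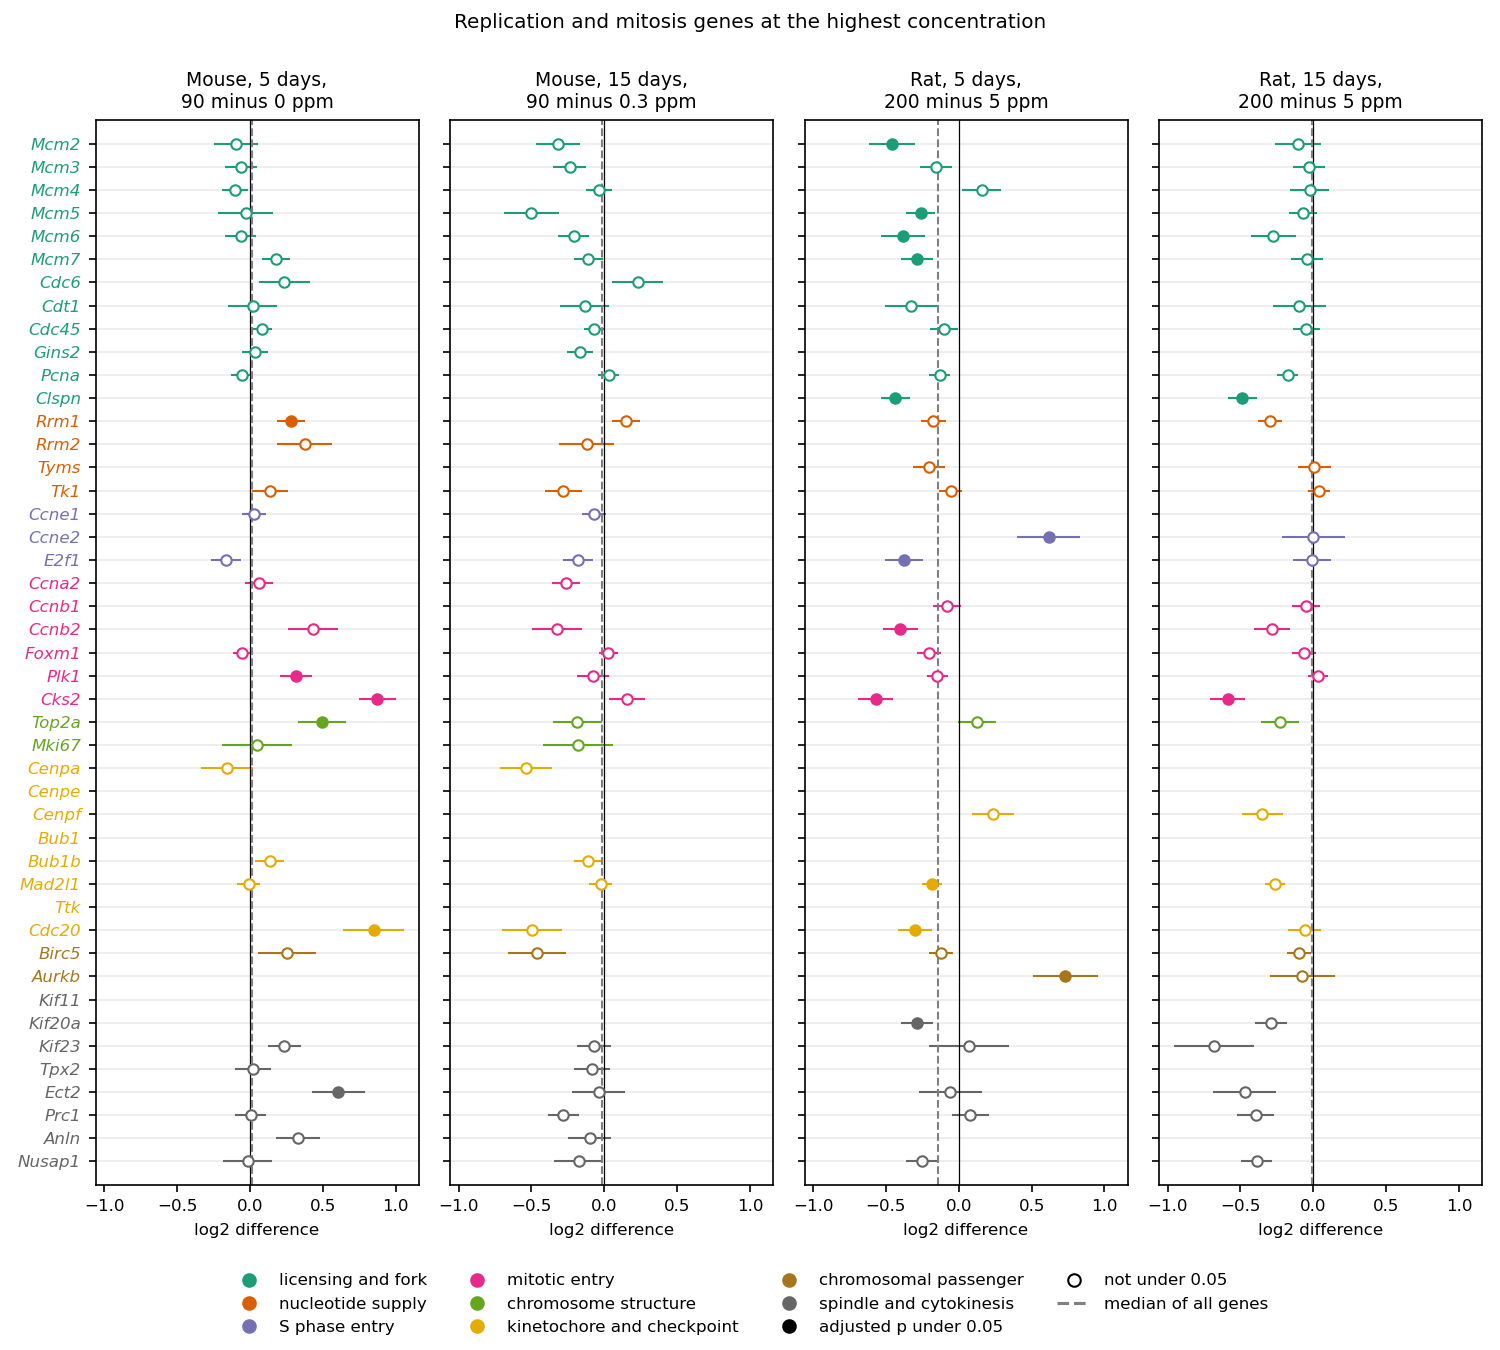
Log2 difference with its SE (horizontal axis) for every tested gene (vertical axis), coloured by role, at the highest concentration against the lowest of the same species and time, in 4 panels. Filled points passed an adjusted p under 0.05 and the dashed line is the median of all genes; in mice at 5 days the 6 filled points, from 0.28 to 0.88, lie to the right of 0, while in rats at 5 days 11 filled points lie to the left and 2, Aurkb and Ccne2 (a gene admitted by the groups where it is high), to the right.

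The same test called genes near this set. All 3 of the genes kept apart rose, Nek2 by 1.15 ± 0.14, Cdk1 by 0.93 ± 0.16 and Aurka by 0.80 ± 0.12. Of 26 tested further mitosis genes 5 rose, among them Spc24 by 0.46 ± 0.13 (adjusted p = 0.0087) and Ube2c by 0.63 ± 0.18 (adjusted p = 0.0116), and of 22 further replication genes 0 passed, with 2 at an unadjusted p under 0.05. Of 9 genes of multiciliogenesis, the making of cells with many cilia, 6 rose, with Ccno at 1.55 ± 0.14 and Deup1 at 1.52 ± 0.13. Of 13 inhibitors of the cycle 3 rose and 2 fell; Cdkn1a, the p53 target p21, rose by 1.27 ± 0.17 and Cdkn1c by 1.02 ± 0.09. Of 14 genes of the G1 phase 1 rose and 2 fell, the cyclins Ccnd2 (-0.34 ± 0.07) and Ccnd1 (-0.39 ± 0.09).

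Markers of several cell types moved in the same comparison. A marker score, the mean of the markers' log2 values after centring each over all arrays of the species, ran from -0.61 to -0.128 at 0 ppm and from 0.1 to 0.633 at 90 ppm for ciliated cells, of which 3 of 5 markers rose. For B and plasma cells, of which 5 of 5 tested markers fell, it ran from 0.439 to 0.793 and from -0.993 to -0.408. For T and natural killer cells, of which 5 of 6 fell, it ran from 0.222 to 0.373 and from -0.85 to -0.435. None of these ranges overlapped between the groups. For granulocyte precursors, which also divide, it ran from -0.817 to 0.114 (mean -0.345) and from -0.202 to 0.655 (mean 0.265); 0 of the 3 tested markers passed, all 3 were above 0, and Ltf was at 1.51 (adjusted p = 0.116), with Mpo and Elane below the filter. Of 3 erythroid markers 0 passed, of 4 thymus markers 1 (Cd8b1) fell, and of the markers of alveolar macrophages, endothelium and fibroblasts 1 of 5 fell in each. The part of these shifts in the differences of the replication and mitosis genes was not tested. The score over all 34 genes ran from -0.223 to 0.119 at 0 ppm and from 0.024 to 0.151 at 90 ppm, and these ranges overlapped.

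The count of 6 fell when any one of the 10 mice was left out, to between 3 and 5. Without the 0 ppm mouse 101 or 105, 3 genes were called, and Rrm1, Top2a and Plk1 were lost in both cases. Ect2 lost its call without the 0 ppm mouse 103 (adjusted p = 0.0744) or the 90 ppm mouse 167 (adjusted p = 0.0568). With RIN as a covariate, which leaves 2 of the 5 controls, Cks2 and Ect2 were called. Cks2 kept its call in all 23 alternatives tried, with differences from 0.78 to 0.95. Top2a, Plk1, Rrm1, Ect2 and Cdc20 lost theirs in 11, 10, 8, 3 and 1 of the alternatives.

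The 90 ppm mice were also set against the 0.3 ppm mice of the same day, which had inhaled chloroprene too. Of the 34 genes 4 rose and 0 fell, where 5.23% of all genes rose: Cks2 by 0.78 (adjusted p = 2.6e-05), Cdc20 by 0.95 ± 0.21 (adjusted p = 0.0016), Rrm1 by 0.39 ± 0.09 (adjusted p = 0.0047) and Plk1 by 0.34 ± 0.11 (adjusted p = 0.0383). In this comparison 28 of 34 differences were above 0, with a median of 0.18 against 0.01 for all genes. Ect2 and Top2a were not called here. Both comparisons share the mice at 90 ppm, and the members' median at 0.3 ppm against 0 ppm was -0.08.

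At 13 ppm, against 0 ppm, Cks2 alone rose, by 0.51 ± 0.13 (adjusted p = 0.0247), and 1.17% of all genes rose. Its values were 8.77, 9.11, 9.37, 9.07 and 9.08, with 4 of 5 mice above every control. Ect2 (0.66, adjusted p = 0.0528), Top2a (0.60, adjusted p = 0.0556) and Cdc20 (0.59, adjusted p = 0.180) missed the threshold with differences about as large as at 90 ppm or larger for Ect2 and Top2a. Mki67 was at 0.57 ± 0.24 (adjusted p = 0.317), with 6.61, 7.18, 7.20, 7.34 and 7.68 against the control values above. Beside them Aurka rose by 0.51 (adjusted p = 0.0203) and Cdk1 by 0.64 (adjusted p = 0.0300), while Nek2 was at 0.30 (adjusted p = 0.402) and Cdkn1a at 0.47 (adjusted p = 0.183). The call of Cks2 was lost without any one of the 0 ppm mice 101, 103 and 105 and the 13 ppm mice 151, 152 and 154, and 3 members were called without 102 or 149.

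At 2 ppm 0 of the 34 genes passed limma's test, with 1 at an unadjusted p under 0.05, and 1.2% of all genes changed in either direction. The smallest adjusted p values belonged to Foxm1 (-0.15, adjusted p = 0.312), Ect2 (0.36, adjusted p = 0.404) and Mcm5 (0.27, adjusted p = 0.618). At 0.3 ppm 0 passed, 0 had an unadjusted p under 0.05, and 0% of all genes changed, although 514 had an unadjusted p under 0.05. There 26 of the 34 differences were below 0, with a median of -0.08 against 0.01 for all genes; Foxm1, Cdt1 and Mad2l1, which had the smallest p, were at -0.11, -0.25 and -0.12.

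**Figure D2:**
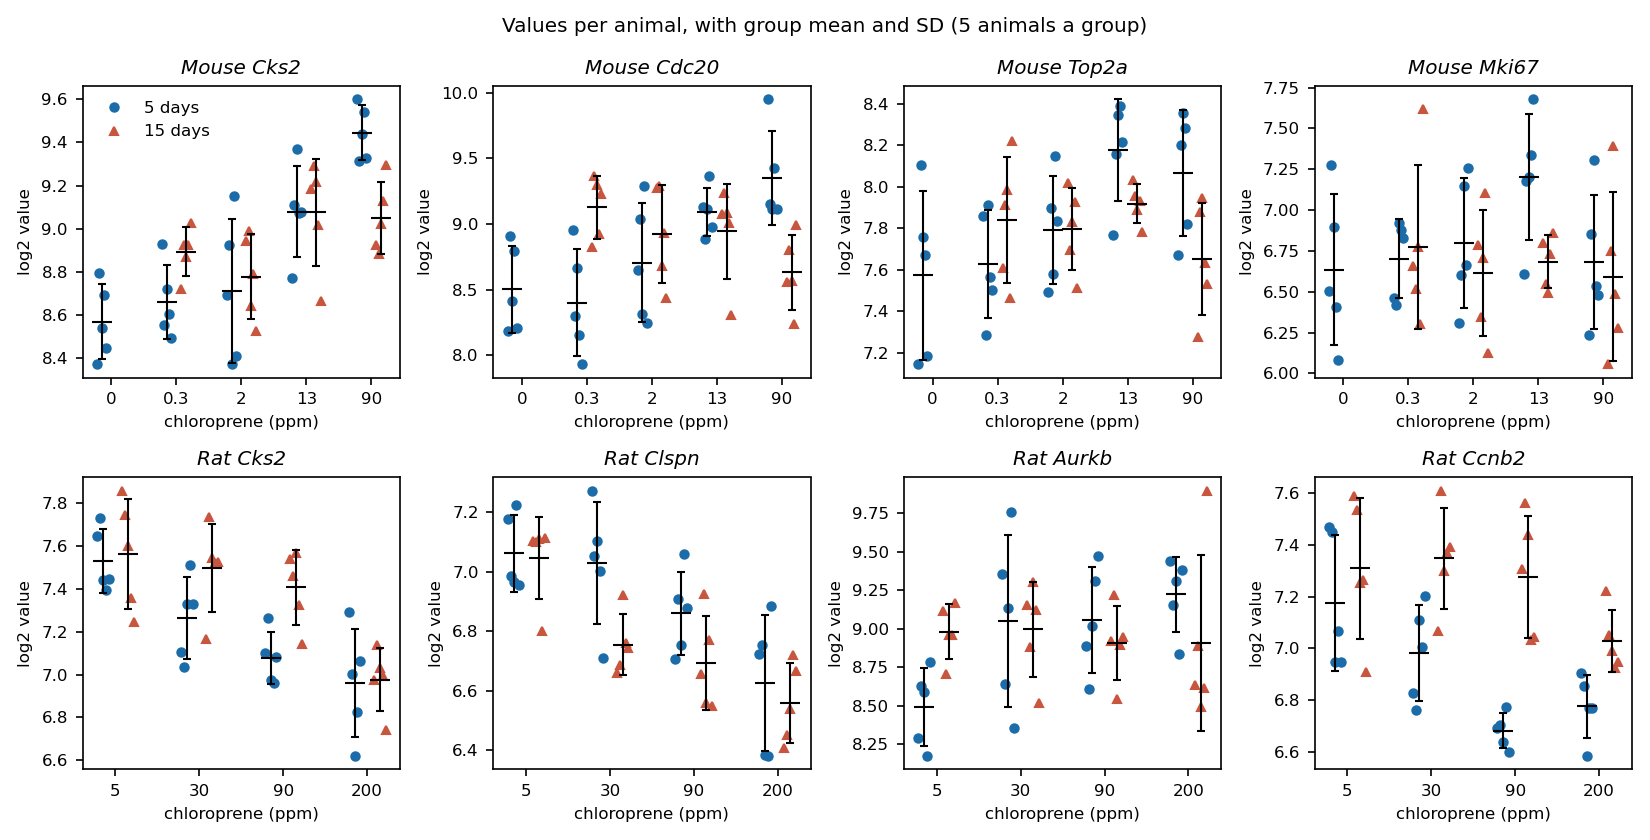
Log2 signal (vertical axis) of each animal at each concentration in ppm (horizontal axis), with group mean and SD, for Cks2, Cdc20, Top2a and Mki67 in mice and Cks2, Clspn, Aurkb and Ccnb2 in rats; circles are animals killed at 5 days and triangles at 15 days. Mouse Cks2 at 90 ppm and 5 days sits between 9.32 and 9.60, above all controls (8.38 to 8.80), while rat Cks2 at 200 ppm is below all 5 ppm rats at both times.

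After 15 days of exposure, 90 ppm was set against 0.3 ppm. None of the 34 genes passed limma's test, 9 had an unadjusted p under 0.05, and 7.97% of all genes changed in either direction. The signs were mostly negative: 29 of 34 differences were below 0, with a median of -0.13 against -0.01 for all genes. The kinetochore genes had a median of -0.30 with 4 of 4 below 0, the licensing and fork genes -0.13 with 2 of 11 above 0, and the spindle genes -0.09 with 0 of 6 above 0.

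Cenpa came nearest to the threshold. It read 8.08, 8.45, 8.13, 8.26 and 8.08 at 0.3 ppm and 7.73, 7.74, 7.54, 7.40 and 7.89 at 90 ppm, with all 5 exposed mice below all at 0.3 ppm, and the difference was -0.54 ± 0.18 (adjusted p = 0.0528). Cyclin A, encoded by Ccna2 and needed for S phase and for entry into mitosis, also did not overlap, at 7.88, 7.88, 8.10, 7.90 and 8.07 against 7.66, 7.69, 7.61, 7.69 and 7.87 (-0.26 ± 0.10, adjusted p = 0.0947). Mcm5, a helicase subunit, had 4 of 5 exposed mice below all others, at 9.19, 9.36, 8.74, 8.74 and 9.66 against 9.46, 9.84, 9.71, 9.65 and 9.55 (-0.50 ± 0.19, adjusted p = 0.0991). The genes that rose at 5 days did not pass here, with Cks2 at 0.16, Cdc20 at -0.49, Ect2 at -0.04, Rrm1 at 0.15, Top2a at -0.18 and Plk1 at -0.08 (adjusted p from 0.154 to 0.954). Neither did Mcm2 (-0.32, adjusted p = 0.224), Birc5 (-0.46, adjusted p = 0.172), E2f1 (-0.18, adjusted p = 0.342) or Mki67 (-0.18 ± 0.24, adjusted p = 0.781), and Pcna, Foxm1, Ccne1 and Cdt1 stood at 0.03, 0.03, -0.07 and -0.13. Without the 90 ppm mouse 181 2 members were called, and without the 0.3 ppm mouse 125 or 128 1 was.

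Beside them at 15 days, Nek2 rose by 0.65 ± 0.14 (adjusted p = 0.0022), while Aurka (-0.14) and Cdk1 (-0.12) did not pass. Of the 22 further replication genes 1 rose, Gmnn, the inhibitor of Cdt1, by 0.46 (adjusted p = 0.0137), and of 26 further mitosis genes 2 fell, Cdc25b (-0.42) and Dlgap5 (-0.26). Cdkn1a rose by 0.70 (adjusted p = 0.0045) and Cdkn1c by 0.74, and of 9 multiciliogenesis genes 0 passed. Ciliated markers rose in 2 of 5 cases, T and natural killer markers fell in 1 of 6, and of 5 B and plasma cell markers 0 passed. Their part in the members' values was not tested.

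The lower concentrations at 15 days gave no calls. Against 0.3 ppm, 0 of 34 genes passed at 13 ppm (0 with an unadjusted p under 0.05; 0.326% of all genes changed) and 0 at 2 ppm (0 with an unadjusted p under 0.05; 0.109% of all genes changed). Of the differences 24 were below 0 at 13 ppm and 29 at 2 ppm. The members with the smallest p were Cdc6 (-0.27), Mcm5 (-0.28) and Pcna (-0.11) at 13 ppm and Anln (-0.26), Cdc6 (-0.25) and Nusap1 (-0.19) at 2 ppm. All 3 comparisons at 15 days share the 0.3 ppm mice, so a shift in that group moves them all.

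The 0.3 ppm mice themselves differed between the times, without any call. From 5 to 15 days 32 of the 34 differences were above 0, with a median of 0.21 against 0.01 for all genes; limma called 0 of the 34 and 0% of all genes, with 15 of the 34 and 1898 of all genes at an unadjusted p under 0.05. Ccna2 read 7.75, 7.47, 7.70, 7.49 and 7.59 at 5 days and, as above, 7.88 to 8.10 at 15 days, without overlap (0.37 ± 0.10, adjusted p = 0.128). Cdc20 had a difference of 0.73 ± 0.21 (adjusted p = 0.154), with 8.96, 8.30, 8.67, 8.15 and 7.93 at 5 days and 8.82, 9.37, 9.29, 8.92 and 9.23 at 15 days. Prc1, which bundles the midzone microtubules, came next by p, at 0.36 ± 0.11 (adjusted p = 0.158).

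At the other concentrations the change from 5 to 15 days was small in number. At 2 ppm 0 genes passed (4 with an unadjusted p under 0.05; 0.0435% of all genes changed), with Pcna at -0.19 (adjusted p = 0.222), Ccna2 at 0.20 (adjusted p = 0.340) and Mcm4 at -0.18 (adjusted p = 0.342) nearest. At 13 ppm Pcna fell by 0.28 ± 0.07 (adjusted p = 0.0354), from 12.40, 12.54, 12.66, 12.58 and 12.60 to 12.25, 12.29, 12.37, 12.17 and 12.29, where 1.12% of all genes fell; the call was lost without any one of the mice 151, 152, 153, 154, 158, 159 and 160. It was also lost with RIN as a covariate (0 members and 0 of all genes called) and with the Gapdh covariate (0 members). RIN ran from 8.6 to 9.1 at 5 days and from 9.4 to 9.6 at 15 days in these mice, without overlap. At 90 ppm 0 passed (4 with an unadjusted p under 0.05; 0.123% of all genes changed), and the largest differences were those of Cdc20 (-0.72 ± 0.21, adjusted p = 0.144) and Cks2 (-0.40 ± 0.13, adjusted p = 0.221), each with all 5 mice at 15 days below all 5 at 5 days. Top2a followed at -0.41 (adjusted p = 0.411).

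Whether the response to 90 ppm differed between the times was tested as the 90 against 0.3 ppm difference at 15 days minus that at 5 days. Cdc20 fell in this contrast, by 1.45 ± 0.29 (adjusted p = 0.0341), where 0.0435% of all genes were lower. At 15 days its values at 90 ppm were 8.56, 8.80, 8.57, 8.24 and 8.99. The contrast was below 0 for 32 of 34 genes, with a median of -0.33 against -0.02 for all genes, and 16 had an unadjusted p under 0.05. Ccnb2 (-0.82 ± 0.24, adjusted p = 0.633), Cks2 (-0.63 ± 0.18, adjusted p = 0.545) and Top2a (-0.62, adjusted p = 0.743) did not pass. Of the genes kept apart, Cdk1 (-1.21 ± 0.23, adjusted p = 0.0170) and Aurka (-0.85 ± 0.17, adjusted p = 0.0341) passed and Nek2 (-0.53, adjusted p = 0.743) did not. Over the alternatives tried, Cdk1 lost its call in 7 and Aurka in 18. The call of Cdc20 was lost when any one of 11 of the 20 mice was left out (118, 120, 121, 126, 127, 129, 165, 168, 177, 179 and 180). The contrast holds the change of the 0.3 ppm mice given above as well as that of the 90 ppm mice.

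In rats killed after 5 days, 200 ppm was set against 5 ppm. Of 31 tested genes 2 were called higher (Aurkb and, subject to the filter as above, Ccne2) and 11 fell, while 4.68% of all genes rose and 31.6% fell. The median of the members was -0.17, against -0.14 for all genes, so the downward counts stand close to the shift of the whole array. RIN ran from 7.3 to 8.5 at 5 ppm and from 7.1 to 8.7 at 200 ppm. The difference between 3′ and 5′ Gapdh probe sets averaged -0.062 at 5 ppm and -0.19 at 200 ppm. The erythroid score ran from -0.076 to 0.313 at 5 ppm and from -0.952 to -0.074 at 200 ppm, where Alas2, an enzyme of haem synthesis in red cell precursors, fell by 1.21 and was the 1 of 2 markers to pass. Other marker lists gave 2 of 5 fibroblast genes higher, 1 of 4 B and plasma cell genes lower and 0 of 6 T and natural killer genes. The part of these values in the members' differences was not tested.

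Licensing and fork genes made up 5 of the 11 that fell, and the median of the 10 tested was -0.27. Clspn, claspin, the fork mediator of checkpoint signalling, read 7.18, 6.99, 6.96, 7.22 and 6.95 at 5 ppm and 6.72, 6.75, 6.39, 6.38 and 6.88 at 200 ppm. The groups did not overlap, and it fell by 0.44 ± 0.10 (adjusted p = 0.0027). Mcm2 fell by 0.46 ± 0.16 (adjusted p = 0.0255), from 8.83, 8.39, 8.32, 8.32 and 7.90 to 7.92, 7.73, 7.95, 8.01 and 7.85, with overlap through 1 rat at 5 ppm. Mcm5, Mcm6 and Mcm7 fell by 0.26, 0.38 and 0.28 (adjusted p = 0.0378, 0.0477 and 0.0416). Pcna (-0.13, adjusted p = 0.146) and Cdt1 (-0.33, adjusted p = 0.148) did not pass.

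Of the 2 S phase regulators tested, E2f1 fell in rats at 200 ppm. E2f1, the transcription factor of S phase genes, fell by 0.37 ± 0.13 (adjusted p = 0.0271), from 8.12, 7.68, 7.72, 7.64 and 7.48 to 7.28, 7.47, 7.38, 7.29 and 7.34, without overlap. The cyclin Ccne2 read 5.85, 5.94, 5.84, 5.70 and 6.72 at 5 ppm and 6.83, 6.79, 6.18, 6.45 and 6.90 at 200 ppm, a difference of 0.62 ± 0.22 (adjusted p = 0.0270, and 0.0322 with no filter on dim probe sets). The groups overlapped through 1 rat at 5 ppm. Its other, dim probe set was at 0.04 (adjusted p = 0.894). None of the 3 nucleotide supply genes passed on its brightest probe set, though a dimmer probe set of Tk1, thymidine kinase, was at -0.57 (adjusted p = 0.0143 in the fit of every probe set).

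In mitotic entry Cks2 and Ccnb2 fell. Cks2 read 7.65, 7.73, 7.44, 7.39 and 7.44 at 5 ppm and 7.29, 7.003, 6.62, 6.83 and 7.06 at 200 ppm, a fall by 0.57 ± 0.12 without overlap (limma adjusted p = 0.0014). Ccnb2 fell by 0.40 ± 0.12 (adjusted p = 0.0133), from 7.47, 7.45, 6.95, 7.07 and 6.95 to 6.90, 6.85, 6.58, 6.77 and 6.77, again without overlap. Foxm1 (-0.20, adjusted p = 0.0571) and Ccnb1 (-0.08, adjusted p = 0.481) did not pass.

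Later in mitosis, Mad2l1 fell by 0.18 (adjusted p = 0.0396), Cdc20 by 0.30 (adjusted p = 0.0416) and the kinesin Kif20a by 0.29 (adjusted p = 0.0392). The kinase of the passenger complex, Aurkb, rose by 0.73 ± 0.22 (adjusted p = 0.0133), from 8.29, 8.63, 8.59, 8.18 and 8.78 to 9.44, 9.16, 9.31, 8.84 and 9.38, without overlap, while its partner Birc5 was at -0.12 (adjusted p = 0.237). The mean of Aurkb at 5 ppm and 5 days, 8.49, was the lowest of the 8 rat groups. The other group means lay between 8.91 and 9.23, with 8.98 at 5 ppm and 15 days. Leaving out the 5 ppm rat numbered 217 left 0 members up and 2 down (Aurkb then at an adjusted p of 0.0524), and leaving out the 5 ppm rat 222 gave 2 up and 15 down. Between 6 and 8 members were called without any one of the 5 ppm rats 219 and 220 and the 200 ppm rats 266, 268 and 269.

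Around these genes in the same rats, Cdk1 (-0.62 ± 0.13, adjusted p = 0.0012) and Aurka (-0.48 ± 0.11, adjusted p = 0.0026) fell, as did 7 of 15 further replication genes and 6 of 16 further mitosis genes, among them Rfc4 (-0.42) and Racgap1 (-0.49). Of 12 inhibitors 3 rose and 1 fell; Cdkn1a was at -0.16 (adjusted p = 0.212). Of 11 genes of G1 1 rose, the cyclin Ccnd2 by 1.01, and 4 fell. Multiciliogenesis genes went both ways, with Ccno at -0.58 and Rfx3 at 0.92 and 1 of 8 called in each direction.

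At 90 ppm, against the same 5 ppm rats, 2 of the 31 were called higher and 11 fell, where 4.13% of all genes rose and 19.5% fell. Ccnb2 fell by 0.50 (adjusted p = 0.0130), with values of 6.69, 6.70, 6.64, 6.77 and 6.60 below all at 5 ppm, and Nusap1, Cks2 and Kif20a fell by 0.42, 0.45 and 0.39. The helicase subunit Mcm4 rose by 0.37 (adjusted p = 0.0439), and Ccne2, with the limit of the filter given above, was at 0.75 (adjusted p = 0.0245). Both tested erythroid markers fell, Alas2 by 0.94 and Slc4a1 by 0.39, and the erythroid score ran from -1.002 to -0.281 at 90 ppm, below all rats at 5 ppm. Of the fibroblast markers 2 of 5 rose (Dcn by 0.91 and Pdgfra by 0.40), of the B and plasma cell markers 1 of 4 fell, of the endothelial markers 1 of 4 rose and of the T and natural killer markers 0 of 6 passed; the part of these in the members' values was not tested. RIN ran from 9.2 to 9.3 in the 90 ppm rats, without overlap with the 5 ppm rats, and with RIN as a covariate 0 members passed. Without the 5 ppm rat 217 the count of members was also 0; it was 1 without the 5 ppm rat 219, 21 without the 5 ppm rat 222, 4 or 5 without any one of the 90 ppm rats 250, 251 and 253, and 7 without 252. At 30 ppm limma called 0 members and 0% of all genes, with 2 members and 1477 of all genes at an unadjusted p under 0.05; Aurkb was at 0.56 (adjusted p = 0.315), Cks2 at -0.27 (adjusted p = 0.353) and Pcna at -0.14 (adjusted p = 0.381).

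After 15 days, 200 against 5 ppm gave 0 members up and 2 down, where 0.5% of all genes rose and 0.318% fell. Cks2 fell by 0.59 ± 0.12 (adjusted p = 0.0113), from 7.86, 7.74, 7.60, 7.36 and 7.25 to 6.98, 7.14, 7.03, 6.99 and 6.74. Clspn fell by 0.49 ± 0.10 (adjusted p = 0.0116), from 7.10, 7.10, 7.11, 6.80 and 7.11 to 6.41, 6.45, 6.54, 6.72 and 6.67. In both, all 5 rats at 200 ppm were below all at 5 ppm. The differences were below 0 for 28 of 31 genes, with a median of -0.10 against -0.01 for all genes, and 12 had an unadjusted p under 0.05.

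The 5 spindle and cytokinesis genes lay between -0.68 and -0.29 at 15 days, with a median of -0.40, and each had an unadjusted p under 0.05, though 0 passed after adjustment. E2f1, Foxm1, Cdt1, Mcm2, Birc5 and Ccnb1 were at -0.01, -0.06, -0.09, -0.11, -0.10 and -0.05, Pcna at -0.18 (adjusted p = 0.204) and Top2a at -0.23 (adjusted p = 0.357). Aurkb, which rose at 5 days, was at -0.08 (adjusted p = 0.893). Cdk1 (-0.32, adjusted p = 0.180), Aurka (-0.08) and Cdkn1a (-0.00) did not pass either, nor did any cell type marker. The 3′ minus 5′ Gapdh difference averaged -0.056 at 5 ppm and -0.204 at 200 ppm; with it as a covariate the adjusted p of Cks2 was 0.28 and that of Clspn 0.696. Without the 5 ppm rat 225 0 members were called, without the 5 ppm rat 227 1 and without 229 3.

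At the lower concentrations at 15 days 0 members passed, at 90 ppm (3 with an unadjusted p under 0.05; 0.309% of all genes changed) and at 30 ppm (9 with an unadjusted p under 0.05; 1.66% of all genes changed). Clspn was again lower without passing, at -0.35 (adjusted p = 0.115) and -0.29 (adjusted p = 0.102); the 3 comparisons share the 5 ppm rats. Ect2 at 30 ppm had the lowest difference of the members near the threshold (-0.67, adjusted p = 0.0871), and Birc5 was above 0 at both (0.19 and 0.20; adjusted p = 0.334 and 0.135).

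From 5 to 15 days the rats at 90 ppm changed most. Of the 31 genes 10 rose and 1, Ccne2, was called lower, where 4.82% of all genes rose and 6.16% fell. Ccnb2 rose by 0.60 (adjusted p = 0.0364), to 7.31, 7.56, 7.44, 7.03 and 7.04, and Kif20a, Ccnb1, Mcm5 and Birc5 rose by 0.51, 0.40, 0.37 and 0.34 (each adjusted p = 0.0364), while Ccne2, which passed the filter on 3 of the 5-day and 0 of the 15-day arrays of this dose, was at -0.78 (adjusted p = 0.0364). These p-values stood near the threshold: leaving out any one of the rats 250, 251, 252, 253, 257, 258 and 259 left 0 calls, leaving out 260 or 261 gave 14, and with RIN as a covariate 0 were left. RIN was from 9.2 to 9.3 at 5 days and from 8.2 to 8.7 at 15 days in this group. At 30 ppm Ccnb1 alone rose, by 0.30 ± 0.10 (adjusted p = 0.0491), where 3.35% of all genes rose; it was lost without any one of the rats 233, 234, 236, 237, 241 and 242, and 14 members were called without the rat 239. At 5 ppm 0 passed (1 with an unadjusted p under 0.05; 0% of all genes changed), with Aurkb at 0.49, Cenpf at 0.26 and Prc1 at 0.22 nearest. At 200 ppm 0 passed (5 with an unadjusted p under 0.05; 0.127% of all genes changed), with Ccne2 at -0.56 (adjusted p = 0.0739), E2f1 at 0.31 (adjusted p = 0.0866) and Cenpf at -0.32 (adjusted p = 0.0949) nearest, and 2 were called without the 200 ppm rat 279 or 281.

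The difference between times for 200 against 5 ppm in rats gave 0 calls among the members, with 3 at an unadjusted p under 0.05, where 11.4% of all genes passed. Cenpf (-0.58, adjusted p = 0.0514), Prc1 (-0.47, adjusted p = 0.0597) and Aurkb (-0.81, adjusted p = 0.0648) came nearest. The members' median was 0.02 against 0.15 for all genes. Leaving out 1 rat gave up to 4 calls: 4 without 222, 3 without 228, 2 without 267, 279 or 281 and 1 without 220 or 226.

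The mean level over all groups shows how far each gene moved in the whole series. The group mean of Mki67 lay between 6.59 and 7.20 over the 9 mouse groups, that of Top2a between 7.57 and 8.18, that of Birc5 between 6.59 and 7.17 that of Cks2 between 8.57 and 9.45 and that of Cdc20 between 8.40 and 9.35. Over the 8 rat groups Top2a lay between 6.86 and 7.13, Birc5 between 6.37 and 6.73, E2f1 between 7.35 and 7.84 and Cks2 between 6.96 and 7.56. These are array levels and are not comparable between genes.

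Side by side, Cks2 and Cdc20 stood on opposite sides of 0 in the species at 5 days and the highest concentration: Cks2 rose by 0.88 ± 0.13 in mice and fell by 0.57 ± 0.12 in rats, and Cdc20 rose by 0.85 ± 0.21 and fell by 0.30. Of all genes, 8.99% rose in the mouse comparison and 31.6% fell in the rat one. The rat fall of Cdc20 had a limma adjusted p of 0.0416. The concentrations (90 and 200 ppm) and the references (0 and 5 ppm) differ, and the species were not compared by a test. Plk1, Rrm1, Top2a and Ect2, which rose in mice, did not pass in rats at 5 days (-0.15, -0.17, 0.12 and -0.06; adjusted p from 0.0921 to 0.839). Clspn and Aurkb, which changed in rats, were below the filter in mice.

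In the mouse at 5 days, most further probe sets of the called genes pointed the same way as the chosen one. In a fit of every probe set 7 of the 101 rose, where 4.13% of all probe sets rose. The second probe set of Cks2 was at 0.95 (adjusted p = 6e-06), and the others of Cdc20 were at 0.66 (adjusted p = 0.0036) and 0.43 (adjusted p = 0.0113). Rrm1 had another at 0.27 (adjusted p = 0.0104) and a dim one at -0.14 (adjusted p = 0.631). For Top2a they stood at 0.37 and 0.19 without passing (adjusted p = 0.0534 and 0.331). Ect2, Plk1, Mki67 and Pcna had 1 probe set each. In that fit the adjusted p of the chosen probe sets of Rrm1, Top2a and Plk1 was 0.0552, 0.0582 and 0.0684.

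In mice, differences between animals of one group went together more among the members than between members and other genes. The Pearson correlation of deviations from the group means had a median of 0.292 over the 561 pairs of mouse members (45 arrays), against 0.055 between members and other genes, and 188 pairs were above 0.5. The closest pairs were Mcm2 with Mcm5 (0.933), Mcm5 with Cdt1 (0.898) and Ccnb2 with Cdc20 (0.886), while not all helicase genes took part: the median correlation with the other members was 0.527 for Mcm2 and 0.544 for Mcm5 but -0.003 for Mcm4 and -0.291 for Cdc45. Across roles, Top2a and Anln were also close (0.817), and the lowest pair was Cdc45 with Ect2 (-0.653). Mki67 had a median of -0.094 with the other members. In rats the median was 0.127 over 465 pairs (40 arrays), against 0.045 with other genes, with Mcm2 and Cdt1 the closest (0.876) Ect2 and Prc1 also close (0.805), and Cdc20 and Kif23 the farthest apart (-0.82). For some rat genes the median correlation was stronger with all other genes than with the other members. It was 0.468 against 0.292 for Mcm2, 0.505 against 0.155 for Mcm7 and -0.509 against -0.204 for Kif23. All values come from the same arrays, so array-wide effects enter every pair, and no p is given. The spread within groups, as a median SD, was 0.194 for mouse members against 0.158 for all genes, and 0.179 against 0.175 in rats.

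**Figure D3:**
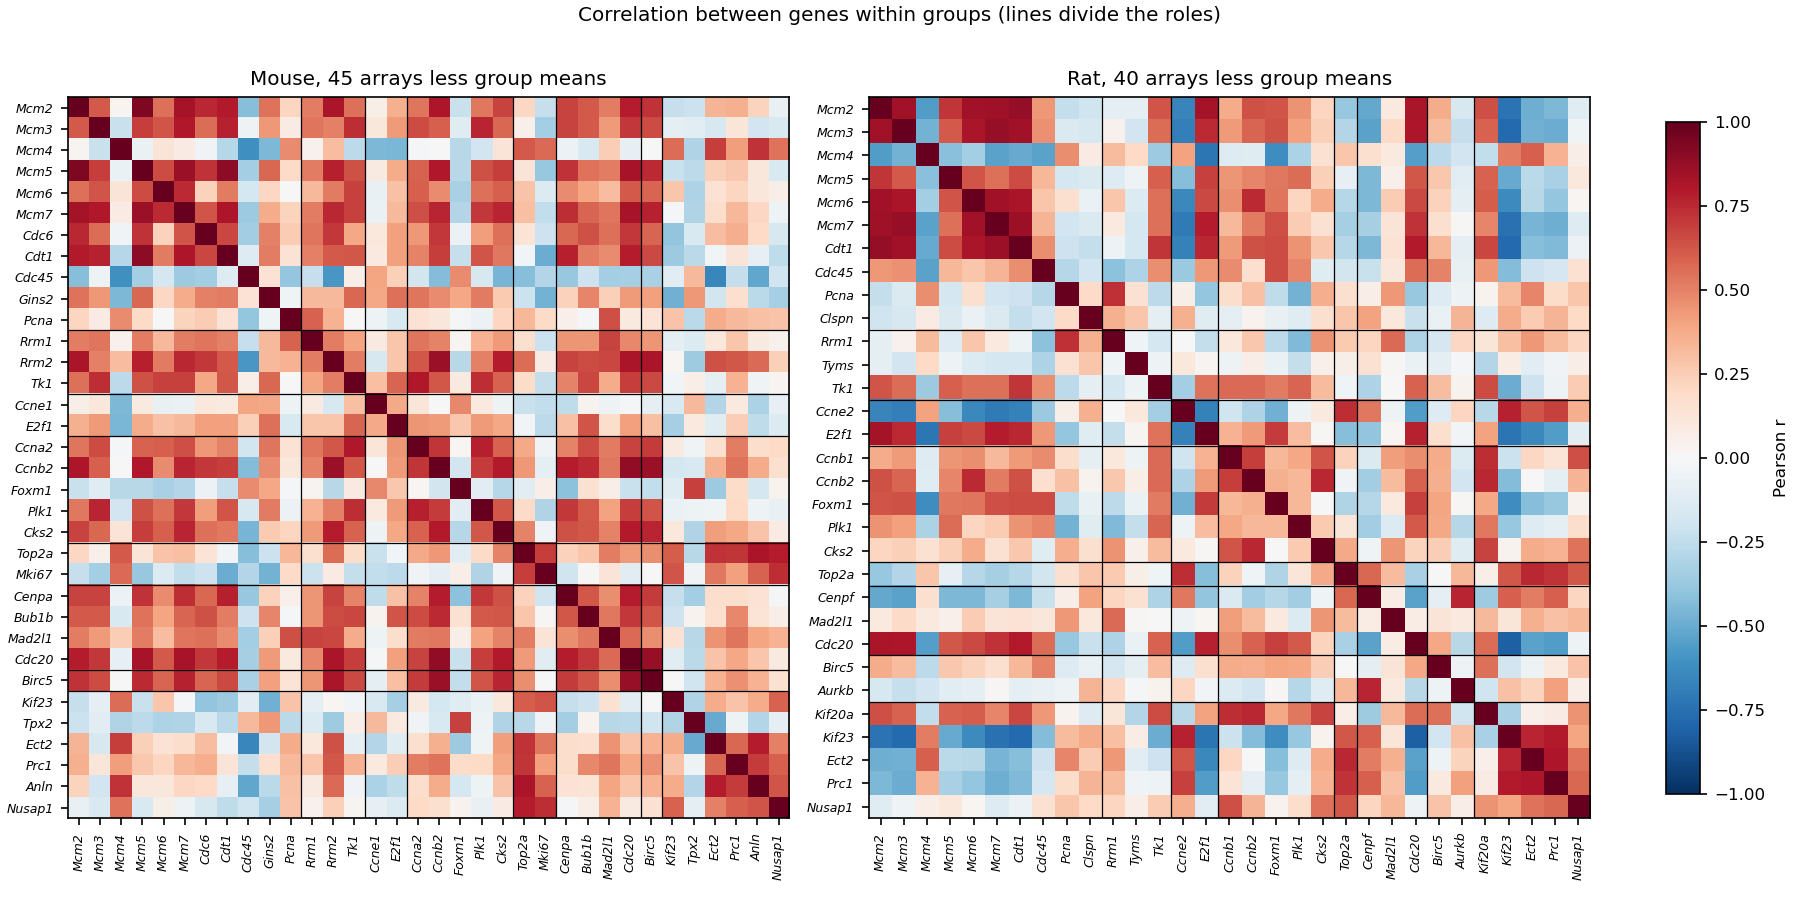
Pearson correlation of within-group deviations between each pair of tested genes, ordered by role on both axes, for mice (left) and rats (right), from blue (negative) to red (positive). In mice most MCM subunits and Cdt1 are red with each other (Mcm2 with Mcm5 0.933) and with several mitotic genes such as Ccnb2 and Cdc20; in rats the same replication genes are red together and blue with Kif23, Ect2 and Prc1.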

How the data were processed

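Lung RNA of 45 mice and 40 rats was measured on 1 Affymetrix array each. The deposited values are on the log2 scale, 1 per probe set and array, and run from 3.47 to 15.3 in mice and from 3.07 to 15.1 in rats; how the authors summarised and normalised them is not given in the sources used here. Probe sets were named from the array annotation, with mouse symbols updated through RefSeq for 34754 probe sets; probe sets with several symbols were left out. For each species limma 3.58.1 in R 4.3.3 fitted a group-means model with empirical Bayes moderation to all arrays, over 24 comparisons in all, after the filter at the 40th percentile on at least 5 arrays. Of a gene's probe sets that passed, the brightest on average stood for it. P-values measure the spread between animals. Precision is set by how many arrays there are; the median SE at the highest concentration after 5 days was 0.0991 in mice and 0.11 in rats.

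The members, the further gene lists and the marker lists were chosen with earlier results of these data known. The text names 10 fixed members at the highest concentrations (Mki67, Top2a, Ccnb1, Foxm1, E2f1, Ccne1, Cdt1, Mcm2, Pcna and Birc5), up to 5 members of smallest p among those called in each direction, the 3 of smallest p where none was called, and further members of each role for comparison, chosen after their values were seen. Alternatives were other filters, quantile normalization, the mean of a gene's probe sets, RIN or the Gapdh difference as covariates, arrays of 1 time alone, a variance trend, other references and subsets of the mice, and leaving out each animal.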

Additional observations from a re-analysis of the deposited data

Results flagged for a closer look

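Each group of 5 animals was searched for an animal far from the other 4. The search covered only some of the genes called at the highest concentrations or between times. Rat Mad2l1 and rat Cdc20, which fell at 200 ppm and 5 days, were not covered. Mad2l1 in rats at 30 ppm and 15 days had a mean of 7.32, with values from 7.15 to 7.36. Cdc20 in rats at 30 ppm and 5 days had a mean of 7.53, with values from 7.35 to 8.04. Of 119 gene and group combinations searched 7 passed Dixon's critical value of 0.71 for 5 samples, and chance alone gives about 1 in 20. For the combinations searched, a count of 7 is near that share, and it does not speak for the called genes left out.

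In mice, Cdc20 was lowest in animal 161 at 13 ppm and 15 days, at 8.3082 against 9.0075 to 9.2332 in the others. Plk1 was lowest in the 0 ppm animal 101 at 5 days, at 7.0559 against 7.2192 to 7.2817, and without this mouse Plk1 lost its call. In rats, Aurkb was highest in animal 282 at 200 ppm and 15 days, at 9.8971 against 8.4961 to 8.8893. Ccne2 was highest in the 5 ppm animal 222 at 5 days, at 6.7156 against 5.7045 to 5.9417. Clspn was lowest in the 5 ppm animal 228 at 15 days, at 6.8009 against 7.0995 to 7.1126. Animal 239, at 30 ppm and 5 days, was highest for both Mcm2, at 8.7897 against 7.8368 to 8.0967, and E2f1, at 7.9657 against 7.37 to 7.4913. Animals 239 and 282 are among the rats whose array titles have another form than the rest. The part of this in their values was not tested.

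The response to 90 ppm differed between 5 and 15 days by limma's test for Cdc20 (a log2 difference of -1.446) and, of the genes kept apart, for Cdk1 (-1.2116) and Aurka (-0.8535).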

How the results depend on the processing

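Of 3543 values of single genes recomputed under an alternative, 3385 kept their direction and side of the threshold, 116 fell short of it, 41 came to pass it and 1 reversed: the dim probe set of Rrm1 in mice at 5 days was at -0.1398 (adjusted p = 0.631), where the cause was not tested. The members called in mice at 5 days were 6, and 2 with RIN as a covariate, which leaves 2 of 5 controls. In mice at 15 days 0 were called, and 1 with the filter at the 60th percentile (17 members tested) or quantile normalization. The difference between times in mice had 1 call, and 0 with RIN as a covariate, without the 9 mice of conflicting duration or without the 6 mice with lettered numbers. In rats at 5 days 13 were called, 6 with the filter at the 60th percentile (12 tested) and 4 with RIN as a covariate. In rats at 15 days 2 were called, 0 with the filter at the 60th percentile or the Gapdh covariate and 4 with the mean of all kept probe sets. The rat difference between times had 0 calls, and 1 with the Gapdh covariate. Leaving out 1 animal gave from 3 to 5 calls in mice at 5 days, 0 to 2 at 15 days and 0 to 1 for their difference, and in rats 2 to 17 at 5 days, 0 to 3 at 15 days and 0 to 4 for the difference. Rat Cks2 and Clspn at 5 days kept their calls in all 18 alternatives each, from -0.65 to -0.48 and from -0.51 to -0.34. Cdc20 in mice at 5 days kept its call in 23 of 24, with an adjusted p of 0.0913 with RIN as a covariate. Rat Ccne2 at 5 days lost its call in 8 of 19. Beyond the highest concentrations, the same settings and left-out animals were added after seeing the data, as was each gene's own probe set in the fit of every probe set, under which Cdc20 no longer passed for the mouse difference between times (adjusted p = 0.0752). No paired analysis was possible because each animal number occurs once and no number is shared between groups. Dim genes, such as Ect2 and Ccne2, are limited by signal near the background.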
